A study of Arabidopsis thaliana with 2 samples.

Results

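The genes described here are regulators and markers of leaf senescence in Arabidopsis thaliana, among them genes of the WRKY transcription factor family. They were chosen as a list of 9 loci, and a locus was read only where the platform annotation ties a probe set to that 1 gene. By this rule 3 of the 9 could be read, of 13286 loci read in all. These 3 were WRKY53 (AT4G23810, probe set 254231_at), WRKY6 (AT1G62300, probe set 264746_at) and SAG101 (AT5G14930, probe set 246600_at). The other 6 loci had no named probe set and were not analysed here. They were WRKY54 (AT2G40750) and WRKY70 (AT3G56400), known as negative regulators of leaf senescence, SAG12 (AT5G45890), which encodes a cysteine protease, SAG13 (AT2G29350), which encodes a short-chain dehydrogenase, SEN1 (AT4G35770), a dark-inducible gene, and SAG21 (AT4G02380), which encodes a late embryogenesis abundant protein.

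The study compared aerial parts of seedlings at 14 days of the transgenic line GFP-TIE1-15, which carries a fusion of green fluorescent protein (GFP) to TIE1, with those of Columbia-0 wild type, on 1 Affymetrix array each. Both groups grew on half-strength Murashige and Skoog medium at 22 °C in long days of 16 h of light and 8 h of dark. Both had the same cold period of 3 days at 4 °C. The promoter of the transgene and the number of plants pooled were not given in the sources used here, and 1 line stands for the transgene. TIE1 (AT4G28840) had no named probe set, so the level of the transgene was not analysed here.

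Leaf senescence is the last stage of leaf life, in which chlorophyll and proteins are broken down and nutrients are moved to growing organs. WRKY proteins are plant transcription factors that bind a promoter element called the W-box, and several of them act both in senescence and in defence, where salicylate and jasmonate signals meet. TIE1 is known to bind TCP transcription factors of the CIN type and to bring TOPLESS corepressors to them, and CIN-type TCPs are known to promote leaf maturation and senescence, in part through jasmonate synthesis. In this design the comparison addresses how the transcripts of these genes differ between shoots of that line and of wild type.

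Each value was the signal of a probe set, an intensity on a linear scale. The median signal over 22810 probe sets was 173.1 in GFP-TIE1-15 and 169.3 in wild type. Markers of green tissue were bright. Of 14 listed photosynthesis genes 2 had a named probe set: LHCB4.1 (AT5G01530), a light-harvesting protein gene, had a signal of 20353 in GFP-TIE1-15 and 25525 in wild type, and RCA (AT2G39730), the Rubisco activase gene, had 16628 in GFP-TIE1-15 and 21195 in wild type. Of 9 listed root markers 4 had a named probe set, with a summed signal of 6030 in GFP-TIE1-15 and 6842 in wild type. PYK10 (AT3G09260), a beta-glucosidase gene of endoplasmic reticulum bodies that seedling shoots also express, gave nearly all of it. The root hair expansin gene EXPA7 (AT1G12560) had a signal of 3.8 in GFP-TIE1-15 and 30.1 in wild type, EXPA18 (AT1G62980) had 44.3 in GFP-TIE1-15 and 62.3 in wild type, and the peroxidase gene AT5G66390 had 28.3 in GFP-TIE1-15 and 3.6 in wild type. The part of any change in tissue makeup in the results was not tested. In whole aerial parts, fewer cells of a type and less RNA per cell cannot be told apart.

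All 3 readable genes had a lower signal in GFP-TIE1-15 than in wild type, and WRKY53 was the only one at least 2-fold lower. WRKY53 encodes a WRKY protein of group III and is known as an early positive regulator of leaf senescence. Its signal was 86.2 on the GFP-TIE1-15 array and 300.2 on the wild-type array, so the transgenic line had 28.7% of the wild-type signal. The log2 ratio, here always GFP-TIE1-15 over wild type, was -1.36. Each ratio was computed after adding a pseudocount of 50 to both signals, 10% of the trimmed mean of an array, and on this scale the difference of dim genes is understated.

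WRKY6 encodes a WRKY protein of group IIb that is known to act in senescence, in pathogen defence and in the phosphate response. Its signal was 123.1 in GFP-TIE1-15 and 274.5 in wild type, which is 44.8% of the wild-type signal. Its log2 ratio of -0.91 did not reach the size rule, which asks for a difference of at least 1 in log2, up or down. The raw signals alone differed by 2.23-fold, so it is the pseudocount that places WRKY6 short of a 2-fold difference.

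SAG101 encodes a lipase-like protein, first described for its part in the onset of leaf senescence and also known as a partner of EDS1 in immunity. Its signal was 144.4 in GFP-TIE1-15 and 218.6 in wild type, which is 66.1% of the wild-type signal, and its log2 ratio was -0.47. The annotation holds 3 RefSeq transcripts of SAG101, which 1 probe set does not separate, and 1 transcript each of WRKY53 and WRKY6. In the order of the ratios, WRKY53 was the lowest, WRKY6 came next and SAG101 was nearest to wild type. With 1 array per genotype there is no replicate error, no test and no p-value, so whether neighbours in this order differ beyond the spread between plants was not measured.

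**Figure D1:**
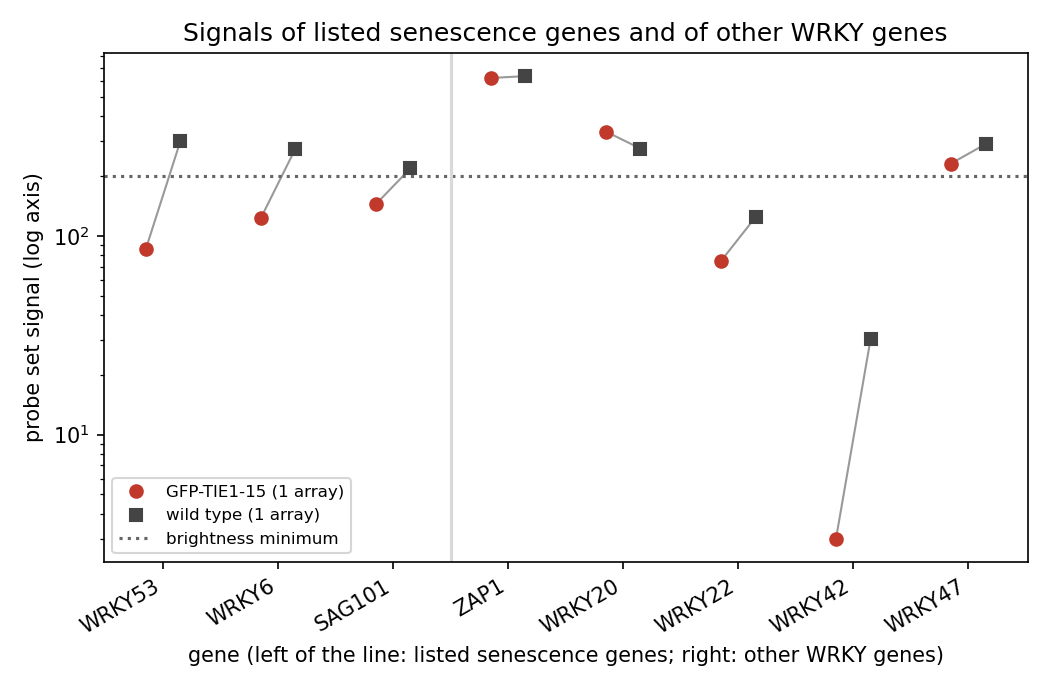
Probe set signal on a log axis for WRKY53, WRKY6 and SAG101 and for the 5 other WRKY genes with a probe set, with GFP-TIE1-15 (circle) left of wild type (square), 1 array each, and the dotted line at the brightness minimum of 200.02. The listed senescence genes lie below the line in GFP-TIE1-15 and above it in wild type, and heights of different genes are not comparable because each probe set has its own response.

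Across the whole array a 2-fold lower signal was uncommon. It was found for 344 of 22746 non-control probe sets (1.51%), for 148 of the 13436 tied to 1 gene (1.1%) and for 270 of the 11308 that reached a signal of 200.02 on at least 1 array (2.39%), beside 1 of the 3 genes. The median log2 ratio was -0.91 over the 3 genes and -0.00 over all non-control probe sets, of which 50.1% lay below 0. The WRKY53 ratio stood among the lowest of the array, with 140 probe sets (0.615%) at or below it. For WRKY6 the count was 456 (2.00%), and for SAG101 it was 2058 (9.05%). The SAG101 ratio was thus shared by many probe sets. The genes were listed with earlier results of these data known, so these shares describe their place and support no statement about senescence genes at large.

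All 3 genes were below the array median of 173.1 in GFP-TIE1-15 and above that of 169.3 in wild type. The brightness minimum of 200.02, set as 40% of the trimmed mean, was reached by each of them in wild type and by none of them in GFP-TIE1-15. In all, 561 probe sets crossed this level in the same way, with a median log2 ratio of -0.52, and 126 of the 561 (22.5%) were at least 2-fold lower. The count of 1 of the 3 genes is best read beside this 22.5%, because all 3 belong to that group. The shares over the whole array are lower and come from probe sets of every brightness. Within that group WRKY6 had 26.0% of ratios at or below its own, and SAG101 had 55.1%. The SAG101 difference was thus near the middle of such probe sets. The place of WRKY53 within that group was not computed. Among the 500 probe sets closest to each gene in mean signal, a robust SD of log2 ratios, taken from the median absolute deviation, was 0.36 for WRKY53, 0.36 for WRKY6 and 0.37 for SAG101. It measures how genes of like brightness scattered here and says nothing of how plants vary. The WRKY53 ratio was 3.84 times its local SD, that of WRKY6 was 2.52 times and that of SAG101 was 1.28 times. This SD takes little account of extreme ratios, so the multiples do not measure rarity. Of the 500 closest probe sets, 2% were at least 2-fold lower for WRKY53, 2.2% for WRKY6 and 2% for SAG101.

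**Figure D2:**
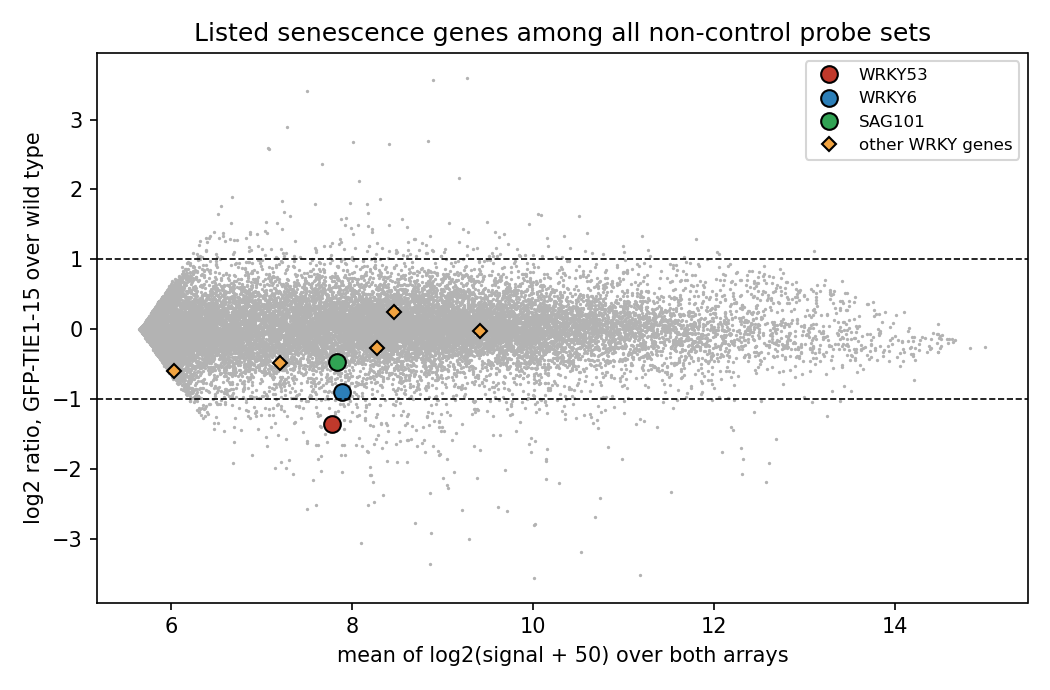
Log2 ratio (GFP-TIE1-15 over wild type) against the mean of log2(signal + 50) for all 22746 non-control probe sets (grey), with WRKY53, WRKY6 and SAG101 as large circles, the 5 other WRKY genes as diamonds and dashed lines at the size rule. WRKY53 at -1.36 lies below the lower dashed line and WRKY6 at -0.91 lies just above it. SAG101 at -0.47 lies nearer to 0, with 9.05% of non-control probe sets at or below its ratio.

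WRKY53 was the only WRKY gene read here that passed the size rule. Of the 72 genes of the WRKY family 7 had a named probe set, including WRKY53 and WRKY6. Of the 7, 1 was at least 2-fold lower, none was at least 2-fold higher and 6 passed in neither direction, beside shares of 1.51% lower and 0.844% higher over all non-control probe sets. The family median log2 ratio was -0.48, with 6 of 7 ratios below 0, beside 50.1% of all non-control probe sets. Over the 5 of the 7 that reached the brightness minimum on at least 1 array, the median was -0.27. WRKY53 and WRKY6 reached that minimum only in wild type, where they are higher. The minimum thus partly fixes the sign of their ratios, and this median is no separate check. Over all 7 the median was -0.28 when the pseudocount was 25% of the trimmed mean. WRKY53 and WRKY6 count among the 7 and were listed with earlier results known, so these family values partly repeat them. The 5 other WRKY genes had log2 ratios of -0.60, -0.48, -0.27, -0.03 and 0.24.

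The group IIb genes read beside WRKY6 were WRKY47 and WRKY42. WRKY47 (AT4G01720) had 230.9 in GFP-TIE1-15 and 289.1 in wild type, a log2 ratio of -0.27. WRKY42 (AT4G04450), which is known to act with WRKY6 in the phosphate response, had 3.0 in GFP-TIE1-15 and 30.1 in wild type, a log2 ratio of -0.60. Both WRKY42 signals were far below the brightness minimum, and with a pseudocount of 1 its ratio was -2.96, so its size is set by the pseudocount. WRKY22 (AT4G01250), a group IIe gene of immune signalling that is also known in dark-induced senescence, had 74.7 in GFP-TIE1-15 and 124.1 in wild type, a log2 ratio of -0.48, again below the minimum on both arrays.

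The group I genes were close to equal on the arrays. ZAP1 (AT2G04880), also called WRKY1, had 621.9 in GFP-TIE1-15 and 635.4 in wild type, a log2 ratio of -0.03. WRKY20 (AT4G26640) had 334.1 in GFP-TIE1-15 and 274.6 in wild type, a log2 ratio of 0.24, and was the only one of the 7 above 0. Of the 13 listed genes of group III, to which WRKY54 and WRKY70 also belong, only WRKY53 had a named probe set, so no group III relative could be set beside it.

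Other genes around senescence were few and had smaller ratios. Of 13 other listed senescence regulators only EIN3 (AT3G20770) was readable. EIN3, the ethylene-signalling transcription factor that promotes senescence, had 1223 in GFP-TIE1-15 and 1570 in wild type, a log2 ratio of -0.35. Of 10 other senescence and dark-induced markers only SAG29 (AT5G13170), a sugar transporter gene also called SWEET15, was readable, with 135.2 in GFP-TIE1-15 and 150.4 in wild type (-0.11). Of 9 chlorophyll breakdown genes only NOL (AT5G04900), a subunit of chlorophyll b reductase, was readable, with 771.4 in GFP-TIE1-15 and 967.4 in wild type (-0.31). None of the 3 passed the size rule. SAG29 was below the brightness minimum on both arrays, and its ratio was smaller in size than its local SD of 0.39.

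Genes of the pathways that SAG101 and the WRKY proteins act in were mostly unread. Of the EDS1 and PAD4 genes, whose proteins form complexes in the same lipase-like family as SAG101, only AT3G48080, a close copy of EDS1, was readable. It had 8.3 in GFP-TIE1-15 and 27.0 in wild type (-0.40), both far below the minimum, and whether EDS1 transcripts also bind its probes was not tested. None of 14 genes of salicylate synthesis and signalling, and none of 6 reported targets and partners of WRKY6 and WRKY53, had a named probe set. Of 8 jasmonate synthesis genes OPCL1 (AT1G20510), which encodes a peroxisomal CoA ligase of that pathway, was readable, with 288.7 in GFP-TIE1-15 and 545.9 in wild type, a log2 ratio of -0.82. It did not pass the size rule.

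The 3 genes lie on chromosomes 4 (WRKY53), 1 (WRKY6) and 5 (SAG101), and their nearest readable protein-coding neighbours had ratios nearer to 0. Next to WRKY53, AT4G23800 had a signal of 786.4 in GFP-TIE1-15 and 557.8 in wild type (log2 ratio 0.46), and AT4G23820 on the other side had 1930 in GFP-TIE1-15 and 2143 in wild type (-0.15). The neighbours of WRKY6 were AT1G62290 at -0.01 and AT1G62310 at -0.46, and those of SAG101 were AT5G14910 at -0.03 and AT5G14940 at -0.13. None of the 6 was at least 2-fold lower, beside 1.51% of all non-control probe sets, so this count does not set them apart from other genes.

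Genes with the most similar pair of signals were found by the smallest distance in log2(signal + 50) over the 2 arrays, among 13159 candidate probe sets. For WRKY53 these were AT1G74440, with 97.3 in GFP-TIE1-15 and 291.3 in wild type, and AR781 (AT2G26530), with 102.6 in GFP-TIE1-15 and 292.2 in wild type. They had log2 ratios of -1.21 and -1.17, and distances from WRKY53 of 0.12 and 0.17. For WRKY6 they were AT1G28070 and AT3G56290, at -0.88 and -0.92, and for SAG101 AT1G09740 and AT4G35870, at -0.47 and -0.44. A pair of arrays gives 2 points per gene, so this likeness says no more than that the signals were similar.

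Among the 5 alternatives in pseudocount and scaling, only a pseudocount of 1 changed which of the 3 genes passed the size rule. With a pseudocount of 1, WRKY53 was at -1.79, WRKY6 at -1.15 and SAG101 at -0.59. At that setting 2 of the 3 genes were at least 2-fold lower. The share over all probe sets was not computed at that pseudocount, so this count has no share to be read beside. At 25% of the trimmed mean as pseudocount the 3 genes were at -1.01, -0.69 and -0.35. WRKY53 then lay on the edge of the rule. After quantile normalization, division by the array median or removal of a loess trend, WRKY53 stayed between -1.40 and -1.36. The order of the 3 genes was the same under all 5.

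**Figure D3:**
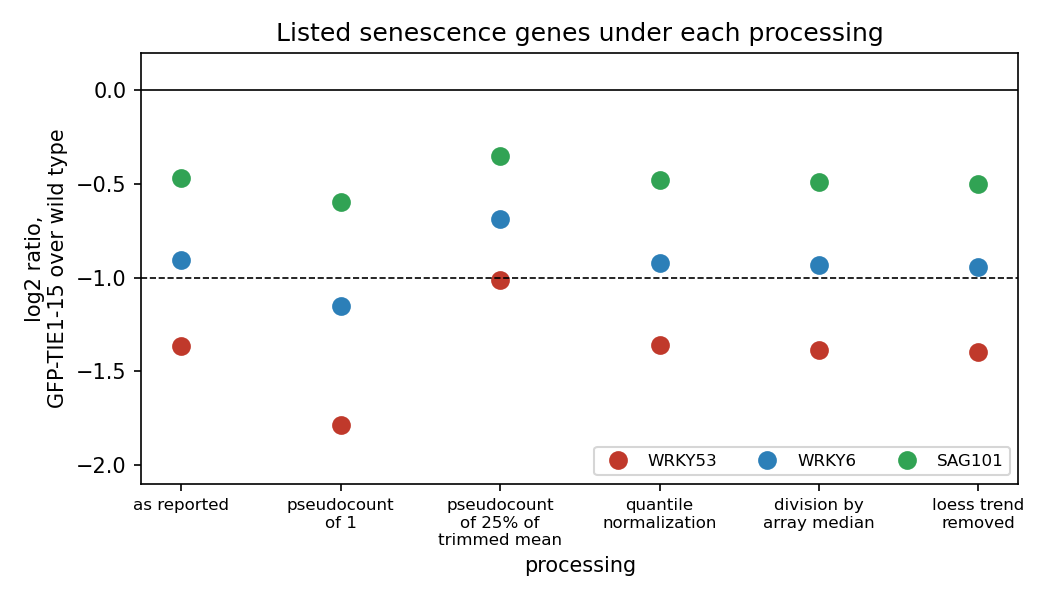
Log2 ratio (GFP-TIE1-15 over wild type) for WRKY53, WRKY6 and SAG101 as reported and under 5 alternatives, with the dashed line at the size rule of -1 and the solid line at 0; each point is 1 array against 1 array. All points lie below 0, WRKY53 runs from -1.79 to -1.01, and WRKY6 passes the dashed line only with a pseudocount of 1.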

How the data were processed

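GCOS 1.0 and MAS5 are named in the submitters' processing notes. The authors deposited linear signal intensity values for 1 array per genotype. Their scaling target is not given in the sources used here. With 2% of values trimmed from either end, both arrays had a mean of 500.05, and the values were used as deposited. Probe sets were tied to loci through gene IDs of the platform annotation and the TAIR10.1 RefSeq gene table, used for names and neighbours: 13513 probe sets had 1 gene symbol, of which 13436 matched a locus, 503 had several and were not named, and 8730 were unnamed here.

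Log2(signal + 50.0) was compared with a size rule of a log2 ratio of at least 1. No brightness minimum was applied to the listed genes. No test was possible with 1 array per genotype, and precision is limited by that number. The 3 senescence genes and, for each of them, the 2 genes nearest in both signals are named. From the pathway lists and the WRKY family, genes are named that passed the size rule or were among the 3 brightest of their list, and WRKY22 and WRKY42 were named after their values were seen. The genes and lists were chosen with earlier results of these data known. One locus (AT1G22570) was dropped from the marker list because its place there could not be supported, after its signals had been seen. Neighbouring genes and the autophagy and SWEET lists were added after values were seen. The scripts were first tested on simulated data. Changes were placed only in probe sets brighter in wild type than the 3 senescence genes, so that test does not cover their brightness. Computation used pandas 2.3.3 and numpy 2.4.6 in Python 3.11.15, statsmodels 0.14.6 for the loess trend, scipy 1.17.1 for ranks and matplotlib 3.10.9 for plots.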

Additional observations from a re-analysis of the deposited data

How the results depend on the processing

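The log2 ratio of WRKY53 was -1.79 with a pseudocount of 1, and the number of listed genes at least 2-fold lower was then 2 in place of 1. With the same pseudocount 3 of the 7 WRKY genes were at least 2-fold lower, WRKY42 being the third. The share over all probe sets was not computed at that pseudocount, so neither count has a share beside it. With a brightness minimum of 200.02 on the mean of the arrays the WRKY count was 0, because WRKY53 was below the minimum, and none of the 3 senescence genes was left, so no count or median could be given for them. For WRKY53, WRKY6 and SAG101 the other alternatives moved each ratio by less than its local SD. No minimum is the setting reported, so it is no separate alternative. No paired analysis was possible because there was only 1 array of each genotype. Dim signals near background limit all 3 genes, and no detection calls were used.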

Other observations

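Sugar export and autophagy both belong to nutrient recycling in ageing leaves, and both lists were chosen after values were seen. Of 16 SWEET sugar transporter genes found by symbol, SAG29 included, 15 had a named probe set. In GFP-TIE1-15, 2 of these were at least 2-fold lower, 1 was at least 2-fold higher and 12 passed in neither direction, beside 1.51% lower and 0.844% higher over all non-control probe sets. Their median log2 ratio was 0.00, and 0.26 over the 5 that reached the brightness minimum on at least 1 array. SWEET4 (AT3G28007), a hexose transporter gene, had a signal of 253.1 in GFP-TIE1-15 and 705.0 in wild type, a log2 ratio of -1.32. SWEET10 (AT5G50790) had 194.1 in GFP-TIE1-15 and 40.8 in wild type, a log2 ratio of 1.43, and its neighbour by locus number SWEET13 (AT5G50800) had 17.1 in GFP-TIE1-15 and 88.9 in wild type, a log2 ratio of -1.05. The adjacent genes thus lay on opposite sides, both with signals below the brightness minimum. With the pseudocount set to 25% of the trimmed mean they were at 0.94 and -0.59. SWEET11 (AT3G48740), a phloem-loading sucrose exporter gene, had 5518 in GFP-TIE1-15 and 5965 in wild type (-0.11).

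Of 19 autophagy genes found by symbol 8 had a named probe set, and none was at least 2-fold apart in either direction. Over all non-control probe sets the shares were 1.51% lower and 0.844% higher, so this count is no result about autophagy genes. The median log2 ratio of the 8 was -0.06. The ubiquitin-like ATG8 genes, whose proteins are built into autophagosome membranes, ran from -0.70 for ATG8H (AT3G06420), with 211.1 in GFP-TIE1-15 and 375.6 in wild type, to 0.41 for ATG8B (AT4G04620), with 350.8 in GFP-TIE1-15 and 250.8 in wild type. ATG8E (AT2G45170) had 879.7 in GFP-TIE1-15 and 1301 in wild type (-0.54), and ATG8F (AT4G16520) had 4483 in GFP-TIE1-15 and 4534 in wild type (-0.02).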
